A study of Mus musculus with 8 samples.

Results

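The CD300 and SIRP receptors described here are 10 mouse genes: Cd300a, Cd300lf, Cd300e, Cd300lb, Cd300ld and Cd300c of the CD300 family, and Sirpa, Sirpb1a, Sirpb1b and Sirpb1c of the SIRP family. They were taken by symbol from a table of 15283 genes in bulk liver RNA, which lists 9 of them, and from a table of 22578 genes in liver nuclei, which lists all 10. The genes were chosen from the measured values of these same livers, in which several were already known to be higher after myeloid deletion of Tgfbr1, so their differences between genotypes are given below as a description and carry no p-value.

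Livers came from mice kept for 30 weeks on a MASH diet, a model of fatty liver disease with inflammation (metabolic dysfunction-associated steatohepatitis). Control mice carried floxed Tgfbr1 alleles (Tgfbr1 flox/flox), and MKO mice carried the same alleles together with LysMcre, a Cre recombinase expressed from the Lyz2 locus of myeloid cells, so both genotypes share the floxed alleles and the diet. Whole-liver RNA was sequenced from 3 control and 3 MKO livers, and nuclei were sequenced as 1 pool of 3 livers per genotype. Recovered reads per bulk library lay between 17448117 and 23986319, and MKO 1 stood apart from the other libraries on the second principal component (48.5, against -23.0 to 4.67). Because Lyz2-driven Cre acts in several myeloid cell types, the model does not separate Kupffer cells, monocyte-derived macrophages and neutrophils. Tgfbr1 itself did not pass the test in whole liver (774.8 ± 36.6 in control and 717 ± 149 in MKO, SD, n = 3 each, limma adjusted p = 0.82). In the macrophage-like nuclei it read 13.5 in control and 4.87 in MKO. It was also lower in MKO in the dividing nuclei (6.88 and 4.15) and the plasmacytoid dendritic-like nuclei (10.3 and 6.98).

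CD300 and SIRP proteins are paired receptors of myeloid cells: within each family, inhibitory and activating members share similar immunoglobulin-like outer domains and differ in how they signal. Inhibitory members carry tyrosine motifs in a long cytoplasmic tail that recruit the phosphatases SHP-1 (Ptpn6) and SHP-2 (Ptpn11). Activating members have short tails and signal through adaptors with an activation motif, DAP12 (Tyrobp) or the Fc receptor gamma chain (Fcer1g), which engage the kinase Syk. Several CD300 receptors bind phosphatidylserine and other lipids exposed on dying cells, and SIRP-alpha binds CD47, the signal by which healthy cells avoid being engulfed.

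The Sirpb1 genes are shown first as sequence, because their likeness limits how far reads can be assigned to any one of them. Sirpb1a, Sirpb1b and Sirpb1c lie near each other on chromosome 3 and code for short-tailed activating receptors that pair with DAP12. Their annotated coding sequences (GENCODE M21) are each 1191 bases long and 97.4 to 98.3% identical in pairs, with 40 positions at which at least 1 of them differs. The longest run common to them covers coding positions 848 to 987, counted from 1 at the start codon, and its 140 bases read, 5′ to 3′:

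Sirpb1a, Sirpb1b and Sirpb1c, shared: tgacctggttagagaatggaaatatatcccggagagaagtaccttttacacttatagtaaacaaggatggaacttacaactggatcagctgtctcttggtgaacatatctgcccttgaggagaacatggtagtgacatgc

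A read inside that run carries no information on which gene it came from. The 90-base stretch richest in differences, coding positions 177 to 266, holds 10 of the 40 differing positions, which are in capitals:

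Sirpb1a: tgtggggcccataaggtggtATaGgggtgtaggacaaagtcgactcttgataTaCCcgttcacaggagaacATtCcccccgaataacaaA
Sirpb1b: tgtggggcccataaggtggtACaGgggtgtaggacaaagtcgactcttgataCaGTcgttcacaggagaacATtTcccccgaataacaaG
Sirpb1c: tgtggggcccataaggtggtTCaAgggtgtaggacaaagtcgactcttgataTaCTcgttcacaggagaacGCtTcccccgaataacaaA

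Over whole annotated transcripts, 40.4% of the 50-base words of Sirpb1a, 58.0% of those of Sirpb1b and 46.1% of those of Sirpb1c also occur in transcripts of another gene. At 100 bases the shares are 23.0, 39.3 and 31.0%. No 50-base word of Cd300e, Cd300lb, Cd300c or Sirpa is shared, and for Cd300a, Cd300lf and Cd300ld the share is 3.18, 2.29 and 3.89%. No source used here says how the authors' counting treated shared reads. The sum of the Sirpb1 genes is therefore given beside each of them.

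The CD300 members form 1 cluster on chromosome 11 (GRCm38): Cd300a at 114890041 to 114904654 on the + strand, and on the - strand Cd300lb at 114922781 to 114934386, Cd300c at 114956116 to 114969157, Cd300ld at 114982274 to 114989922, Cd300e at 115051917 to 115062177 and Cd300lf at 115116214 to 115133992. Sirpa lies on chromosome 2 at 129592835 to 129632228 (+ strand). Sirpb1a lies on chromosome 3 at 15371653 to 15426520, Sirpb1b at 15495751 to 15575065 and Sirpb1c at 15795145 to 15848528, each on the - strand. Because members of the CD300 cluster were higher together, promoters from RefSeq (GRCm38.p6; 250 bases before to 50 after the start) were searched on both strands for 4 short motifs. Sequence was found for 9 of the 10 members, with no entry for Sirpa. GAGGAAG, a core bound by PU.1 and other ETS factors of myeloid cells, was present in 3 of 9 (Cd300a, Cd300lf and Cd300ld) and in 13.6% of all 32851 promoters. TTGCNNAA, a C/EBP core, was present in 1 of 9 (Cd300a) against 10.8%, TGANTCA, an AP-1 site, in 0 of 9 against 7.81%, and CAGAC, a SMAD box, in 5 of 9 against 49.6%. These are letter matches in a short window, and no overlap between motifs was counted. The stretches upstream of Cd300a, Cd300lf and Cd300e, cut where they would enter the annotated gene, are shown as examples with and without a match, with GAGGAAG and TTGCNNAA (either strand) in capitals:

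Cd300a, chr11:114889791-114890040, + strand: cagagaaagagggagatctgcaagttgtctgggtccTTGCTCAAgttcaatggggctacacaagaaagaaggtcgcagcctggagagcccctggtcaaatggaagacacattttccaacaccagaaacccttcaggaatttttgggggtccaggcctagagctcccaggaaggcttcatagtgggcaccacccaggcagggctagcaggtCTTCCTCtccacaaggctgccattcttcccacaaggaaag
Cd300lf, chr11:115133993-115134242, - strand: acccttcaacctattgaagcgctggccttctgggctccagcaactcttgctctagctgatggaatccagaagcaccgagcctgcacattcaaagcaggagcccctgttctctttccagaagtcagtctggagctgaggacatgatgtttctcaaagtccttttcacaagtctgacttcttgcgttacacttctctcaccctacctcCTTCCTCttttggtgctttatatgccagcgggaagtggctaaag
Cd300e, chr11:115062178-115062289, - strand: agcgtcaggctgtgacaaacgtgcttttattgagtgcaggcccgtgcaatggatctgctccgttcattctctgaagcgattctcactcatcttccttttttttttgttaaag

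Cd300e has no match to the first 3 motifs anywhere in its promoter window.

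In whole liver, the value in every MKO library lay above the value in every control library for all 9 listed members. The same held for 10.4% of all 15249 genes tested, those whose mean was 1 or more, a minimum that all 9 members passed. Values are read counts that the authors had divided by a size factor per library. Fold changes are log2 fold changes of MKO over control on the log2(value + 1) scale, from limma fitted over all tested genes. Of the 9, 7 lay past the threshold used for all genes (adjusted p under 0.05, higher in MKO), as did 2.96% of all genes. Their median log2 fold change was 2.15, against -0.02 over all tested genes. Since the members were chosen on this contrast, nothing is read from these counts. In bulk RNA, a difference in the number of cells of a type and a difference in RNA per cell cannot be told apart.

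**Figure D1:**
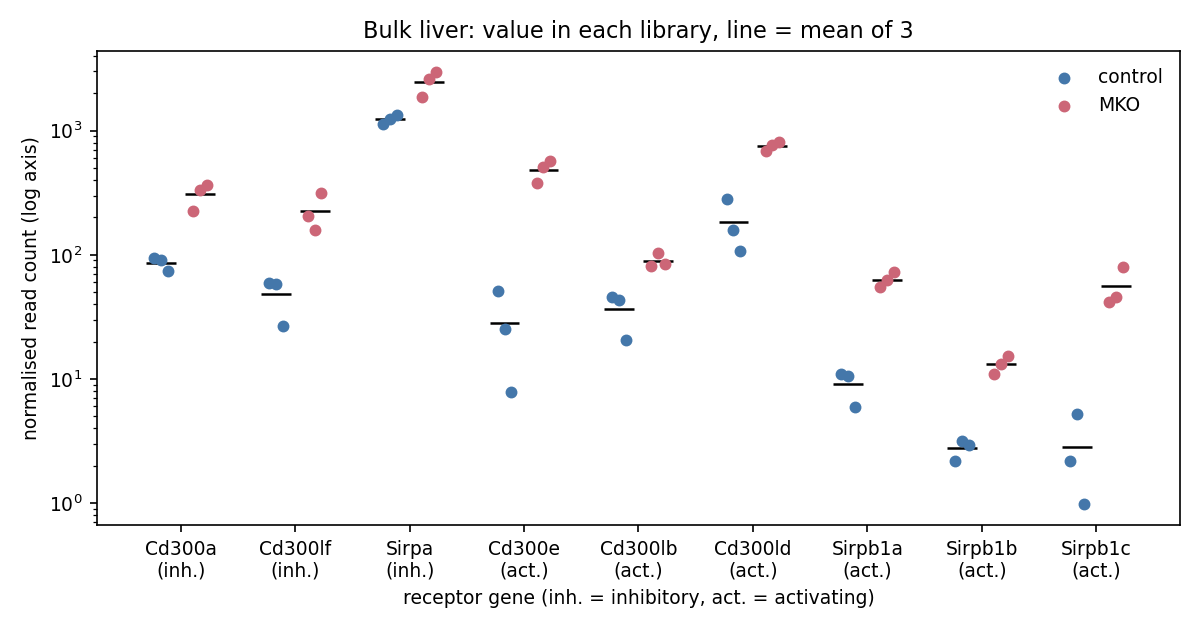
Normalised read count (log axis) of each listed receptor gene in the 3 control (blue) and 3 MKO (red) bulk liver libraries, with a line at each mean. MKO points lie above control points for all 9 genes, with the widest gaps for Cd300e (means 28.0 and 486) and Sirpb1c (2.80 and 55.8).

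Among the inhibitory receptors, Cd300a, which dampens myeloid and mast cell activation on binding phosphatidylserine, read 94.5, 90.3 and 73.9 in the control livers, numbered 1 to 3, and 227, 332 and 367 in the MKO livers, in the same order. The control livers lay close together, and the lowest MKO liver lay above every control. Its log2 fold change was 1.81 ± 0.21 (SE). Cd300lf, an inhibitory receptor that also binds phosphatidylserine, read 59.7, 57.7 and 26.6 in the control livers and 206, 159 and 314 in the MKO livers, a log2 fold change of 2.24 ± 0.36 (SE). The spread was wider here, with control 3 low and MKO 3 high. Without MKO 3, Cd300lf no longer lay past the threshold.

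Sirpa, the inhibitory receptor for CD47, was the most abundant member. It read 1131, 1251 and 1335 in the control livers and 1867, 2619 and 2953 in the MKO livers. Its log2 fold change of 0.98 ± 0.17 (SE) was the smallest of the 9, and MKO 1 was the lowest of the MKO livers. Sirpa fell short of the threshold when MKO 2, MKO 3, control 1 or control 2 was left out.

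Among the activating receptors, Cd300e had the largest log2 fold change on the log2(value + 1) scale, while Sirpb1c, with far fewer counts, had the larger ratio of means (19.9 against 17.3) and the larger log2 fold change with edgeR on the recovered reads (4.27 against 4.13). Cd300e is best known from human monocytes, where it couples to DAP12. It read 51.0, 25.2 and 7.88 in the control livers and 377, 509 and 571 in the MKO livers. The controls themselves differed several-fold, with control 3 lowest, yet the highest of them lay far under the lowest MKO liver. The ratio of the means was 17.3 and the log2 fold change 4.38 ± 0.54 (SE). Set against its inhibitory neighbour, Cd300e amounted to 30.9 ± 21.8% of the Cd300a value in control livers and 158 ± 6.92% in MKO livers (SD, n = 3 each). Those percentages are of counts not scaled to gene length, so they compare genotypes and do not rank the genes by level.

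Cd300ld, which signals through the Fc receptor gamma chain, read 282, 160 and 106 in the control livers and 686, 765 and 811 in the MKO livers, a log2 fold change of 2.15 ± 0.30 (SE). Its count relative to Cd300a, not scaled to length, overlapped between genotypes, at 207 ± 81.6% in control and 251 ± 44.5% in MKO (SD, n = 3 each). Cd300lb, a DAP12-coupled receptor, read 45.6, 43.0 and 20.7 in the control livers and 80.6, 103 and 83.8 in the MKO livers. That difference, 1.34 ± 0.32 (SE) on the log2 scale, was the smallest among the listed CD300 members and did not reach the threshold. Cd300c is not in the bulk table used here.

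The Sirpb1 genes were scarce in control livers. Sirpb1a read 10.9, 10.5 and 5.91 in control and 54.9, 62.2 and 72.2 in MKO (log2 fold change 2.70 ± 0.31, SE). Sirpb1b read 2.17, 3.15 and 2.96 in control and 10.98, 13.3 and 15.4 in MKO (1.92 ± 0.43, SE), without reaching the threshold. Sirpb1c read 2.17, 5.25 and 0.986 in control and 41.5, 45.9 and 79.9 in MKO (a 19.9-fold ratio of means, with an SE of 0.50 on the log2 scale), and MKO 3 was its highest library. Control values of this size rest on few reads: 2, 5 and 1 for Sirpb1c, and 14, 18 and 10 for the 3 genes together.

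Summed, the Sirpb1 genes read 15.2, 18.9 and 9.86 in the control livers and 107, 121 and 168 in the MKO livers, a 9.02-fold ratio of means. Relative to Sirpa, in counts not scaled to length, the sum amounted to 1.197 ± 0.41% in control and 5.35 ± 0.62% in MKO (SD, n = 3 each). The groups did not overlap. Within the sum, the share assigned to Sirpb1c was 14.3, 27.8 and 10.0% in the control livers and 38.6, 37.8 and 47.7% in the MKO livers. The share of Sirpb1a was 62.3 ± 8.19% in control and 48.5 ± 4.67% in MKO, and that of Sirpb1b 20.3 ± 8.47% and 10.1 ± 0.87% (SD, n = 3 each). Because of the shared stretches shown above, these shares depend on the assignment of reads.

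Levels can be compared between genes only per length, as normalised count per kilobase of annotated exon. On that scale the order in control livers was Sirpa (252 ± 20.9), Cd300ld (69.1 ± 34.1), Cd300a (18.2 ± 2.29), Cd300e (13.4 ± 10.4), Cd300lb (12.5 ± 4.70), Cd300lf (9.33 ± 3.61), Sirpb1a (3.97 ± 1.203), Sirpb1b (0.96 ± 0.18) and Sirpb1c (0.76 ± 0.60; SD, n = 3 each). From Cd300a down to Cd300lf, neighbours in that order did not differ beyond the spread, nor did Sirpb1b and Sirpb1c. In MKO livers the order was Sirpa (505 ± 113), Cd300ld (285 ± 23.9), Cd300e (233 ± 47.4), Cd300a (65.2 ± 15.4), Cd300lf (44.0 ± 15.4), Cd300lb (30.6 ± 4.16), Sirpb1a (27.6 ± 3.79), Sirpb1c (15.1 ± 5.71) and Sirpb1b (4.59 ± 0.77; SD, n = 3 each). Cd300e now stood next to Cd300ld, from which it did not differ beyond the spread, and well above Cd300a. Cd300a and Cd300lf, Cd300lf and Cd300lb, and Cd300lb and Sirpb1a did not differ beyond theirs either. The spread here is the SD over libraries, and genes were not compared within each library.

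Most macrophage markers were higher in the same libraries, but those of lipid-associated macrophages mostly were not. Of 15 macrophage markers fixed as a list, 12 were called higher and 0 lower (limma, adjusted p under 0.05), and their summed level ran from 6693 to 11321 over the control livers and from 15890 to 24232 over the MKO livers. Of 10 Kupffer cell markers, 4 were called higher, with sums of 4389 to 8342 and 10655 to 14882. Of 10 markers of lipid-associated macrophages, 2 were called higher (Lgals3 and Itgax) and 1 lower (Trem2), and their sums overlapped, at 10406 to 12855 and 10901 to 13189. Spp1 of this list is also a listed bile duct marker. In the nuclei described below, the list summed highest in the bile duct-like cluster (38.6 in control and 61.5 in MKO). Its whole-liver sum is therefore not a measure of macrophages alone. For 10 markers of patrolling monocytes, 6 were called higher (Spn, Adgre4, Pou2f2, Ear2, Itgal and Treml4) and 1 lower (Cx3cr1), with sums of 805 to 1242 and 2675 to 3747. Classical monocyte markers gave 2 of 10 called higher, conventional dendritic cell markers 3 of 10, T and NK cell markers 3 of 11 and plasmacytoid dendritic cell markers 1 of 8. Of 6 neutrophil markers in the table, 1 (Csf3r) was called higher, and the sums overlapped widely, at 501 to 11425 over the control livers and 1050 to 3919 over the MKO livers. Lcn2, which liver cells other than neutrophils can also make, accounted for most of the highest control sum (11285), while S100a8 spanned 9.45 to 14.8 over the control livers against 12.5 to 28.6 over the MKO livers. No listed marker in the table was at 0 in every library. The part of these markers in the receptors' values was not tested.

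To set the receptors against macrophage RNA, each value + 1 was divided by the summed macrophage list within its library and put on the log2 scale. On that scale 7 of 9 members lay higher in every MKO library than in every control library, as did 1.13% of all tested genes, and without the added 1 the count was again 7 (1.21% of all genes). For Cd300e, 4.51, 2.73 and 1.18 counts per 1000 of macrophage-list counts (no pseudocount) in the control livers stood against 23.7, 22.2 and 23.6 in the MKO livers. The log2 difference with the added 1 was 3.16 for Cd300e and 2.78 for Sirpb1c, and without it 3.25 and 3.36, so their order turned with the pseudocount. With the added 1, Sirpb1a gave 1.48, and Cd300lf, Cd300ld, Sirpb1b and Cd300a lay between 0.59 and 1.02. Sirpa (log2 difference -0.24) and Cd300lb (0.12) overlapped between genotypes. Dividing by the Kupffer list gave the same count, 7 of 9, against 1.34% of all genes (7 and 1.42% without the added 1). Since the members were chosen on this contrast, nothing is read from these counts or from those with other denominators below.

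The count depended on the denominator. Lyz2, the locus that carries Cre, made up 11.3 to 15.4% of the summed list in control livers and 3.40 to 5.45% in MKO livers. With Lyz2 left out of the list, 6 of 9 members lay higher in every MKO library (0.839% of all genes), Sirpb1b being the one that then overlapped; without the added 1 it did not overlap, and the count was 7 (0.918%). With Csf1r alone, the receptor for the growth factor that macrophages depend on, 3 of 9 did (0.321% of all genes), and with Adgre1 alone, which encodes the macrophage marker F4/80, 3 of 9 as well (0.243%). Without the added 1, both counts were again 3 (0.348 and 0.302% of all genes). In each case the 3 were Cd300e, Sirpb1a and Sirpb1c. Per Csf1r, the log2 difference was 2.63 for Cd300e, 0.05 for Cd300a and -0.78 for Sirpa, which then lay lower in every MKO library. The denominators Adgre1 and the list without Lyz2, and the values without the added 1, were chosen after seeing the data.

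**Figure D2:**
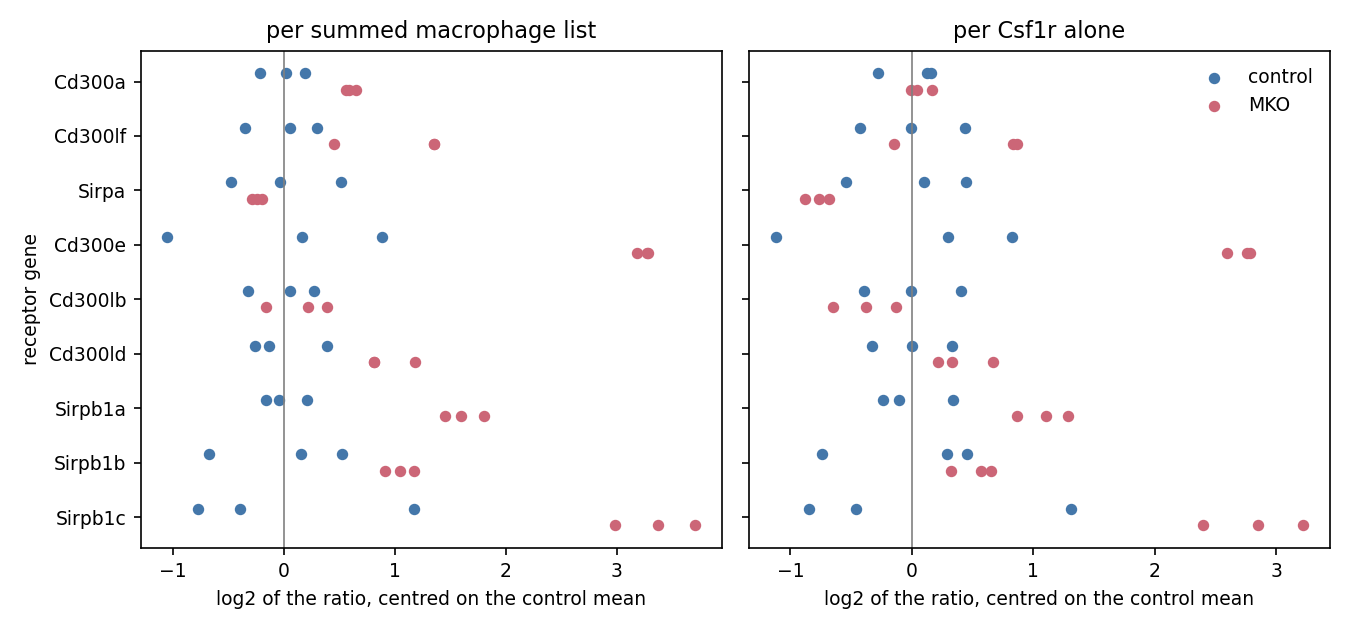
Each receptor divided by the summed macrophage list (left) or by Csf1r (right) in each bulk library, as log2 of the ratio without a pseudocount, centred on the control mean; 3 control (blue) and 3 MKO (red) points per gene. Cd300e, Sirpb1a and Sirpb1c lie to the right of their controls in both panels, while Sirpa overlaps its controls in the left panel and lies to the left of them in the right panel.

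In the nuclei, values are means per gene, cluster and genotype in which each column sums to 10000, and there is 1 pool per genotype, so no difference has a replicate check. Of 13 clusters, cluster 2 was macrophage-like: all 15 macrophage markers and 9 of 10 Kupffer markers were enriched there, and Klra2, Lilr4b and Adgre4 were among its leading genes. Cluster 10 was marked by dividing-cell genes (10 of 10, led by Top2a) together with 12 of 15 macrophage markers. Cluster 11 was plasmacytoid dendritic-like (9 of 10 markers, led by Siglech). The other clusters were hepatocyte-like (0, 1 and 3), sinusoidal endothelial-like (4), stellate-like (5), bile duct-like (6), T and NK-like (7), B-like (8), vascular endothelial-like (9) and mesothelial-like (12).

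Every member except Cd300c had its highest or second highest value in cluster 2 in both pools. Summed over the 13 cluster means, cluster 2 held between 40.7% (Cd300lf) and 80.8% (Sirpb1b) of a member's total in control, Cd300c aside, and between 46.1% (Sirpb1c) and 69.5% (Cd300lb) in MKO. Cluster 10 came next for most members. Hepatocyte-like clusters read at most 0.0152 for any member but Sirpa, for which they read 0.0892 to 0.399. Sirpa was the broadest member: it was above 0 in every cluster and reached 1.31 in control and 0.681 in MKO in the vascular endothelial-like cluster.

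**Figure D3:**
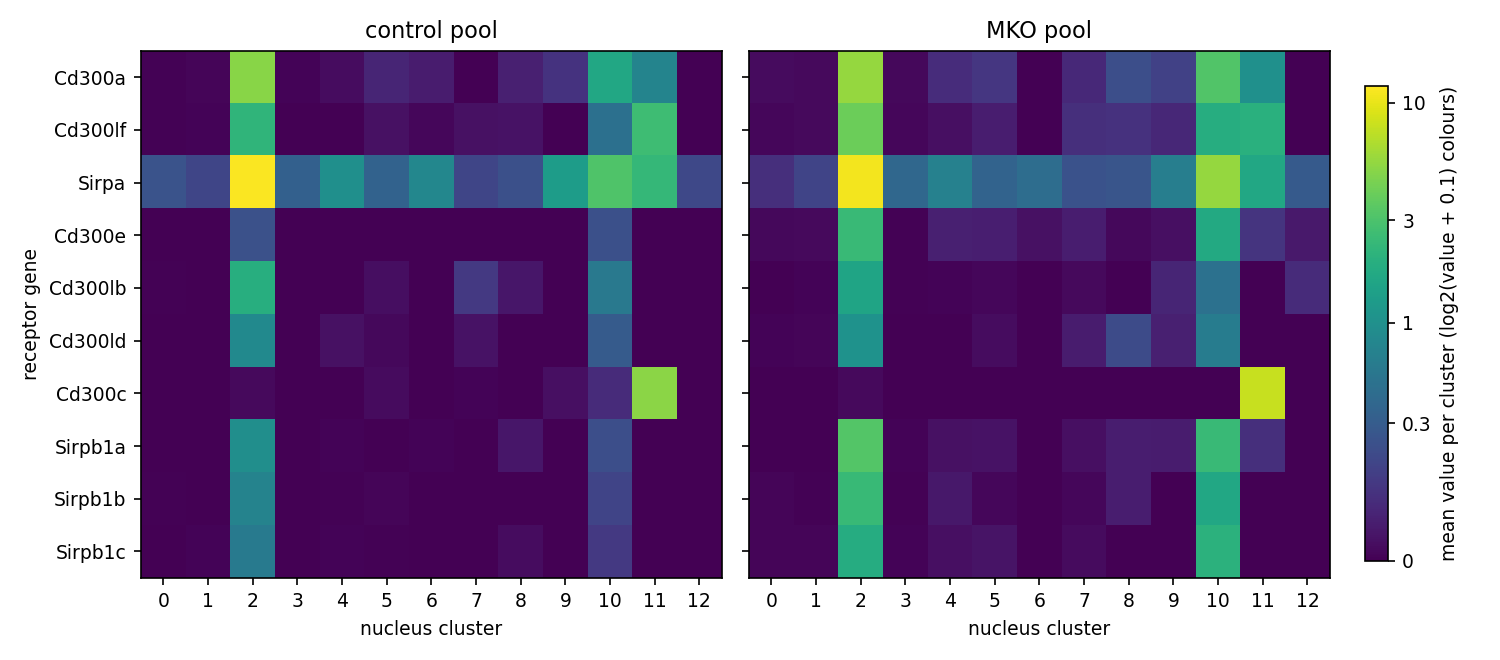
Mean value of the 10 receptor genes in each of 13 nucleus clusters, for the control pool (left) and the MKO pool (right), coloured on a log2(value + 0.1) scale. Colour concentrates in cluster 2 (macrophage-like) and cluster 10 (dividing, with macrophage markers), Cd300c is brightest in cluster 11 (plasmacytoid dendritic-like), where Cd300lf and Sirpa show as well, and Cd300e and the Sirpb1 genes are brighter in clusters 2 and 10 of the MKO pool.

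Within the macrophage-like cluster the more abundant inhibitory receptors had similar values in both pools. Sirpa read 11.6 in control and 10.9 in MKO, and Cd300a 5.06 and 5.52. Cd300lf was higher, at 2.20 and 3.99. Among activating receptors Cd300e read 0.229 in control and 2.46 in MKO, Sirpb1a 0.962 and 3.26, Sirpb1b 0.754 and 2.44, and Sirpb1c 0.620 and 1.84. Cd300lb read 1.91 and 1.53, and Cd300ld 0.867 and 1.05. In that cluster 8 members had a larger value of at least 1.44, the 90th percentile over its genes above 0. Of these, 4 were at least 2-fold higher in the MKO pool (Cd300e, Sirpb1a, Sirpb1b and Sirpb1c), as were 5.04% of the 1905 genes that reached it. Each of the 4 reached that level in the MKO pool only. Their entry therefore depended on the difference itself, and nothing is read from this count.

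The Sirpb1 sum equalled 20.2% of Sirpa in control nuclei and 69.4% in MKO nuclei of this cluster. The split within the sum was much the same in both pools of cluster 2: Sirpb1a took 41.2 and 43.3%, Sirpb1b 32.3 and 32.4%, and Sirpb1c 26.5 and 24.4%. In cluster 10 it was less even, with Sirpb1a at 42.8 and 39.6%, Sirpb1b at 32.8 and 26.8%, and Sirpb1c at 24.3 and 33.6%. The whole-liver split differed more between genotypes, but its control side rested on 14, 18 and 10 reads. All of these splits depend on the assignment of reads. In cluster 2, the summed macrophage list read 65.8 in control and 83.0 in MKO, the Kupffer list 36.8 and 41.7, the patrolling monocyte list 15.3 and 35.5, and the neutrophil list 2.25 and 1.92. The patrolling monocyte genes did not move together. Adgre4 (4.68 and 17.8), Pou2f2 (3.52 and 8.57), Ear2, Treml4, Nr4a1 and Spn were higher in MKO. Cx3cr1 (1.32 and 0.192), Itgal (3.41 and 3.38), Ace and Eno3 were lower. The lipid-associated macrophage list was lower in MKO, at 23.9 and 12.1, with Gpnmb at 6.14 and 1.18 and Trem2 at 0.809 and 0.0829. Per 1000 of the macrophage list, Cd300e read 3.48 and 29.6 and Sirpa 176 and 131. The part of these markers in the receptors' differences was not tested.

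In cluster 10, Cd300e read 0.222 in control and 1.73 in MKO, the Sirpb1 sum 0.507 and 6.17, Cd300lf 0.490 and 1.87, and Sirpa 3.12 and 5.56. Its macrophage markers differed between pools as well, with a summed level of 21.3 and 53.3, so per 1000 of that list Sirpa read 147 and 104 and Cd300e 10.4 and 32.4. Sinusoidal endothelial markers in cluster 10 summed to 31.1 in control and 7.35 in MKO, and the part of this difference in the receptors' values was not tested. Cd300e was listed at 0 in 10 of 13 control clusters and in 0 of 13 MKO clusters. Its MKO values in the hepatocyte-like clusters were 0.00333 to 0.0128, while the macrophage list there summed to 0.904 to 1.16 in control and 1.21 to 1.56 in MKO. Free RNA in the nucleus suspension was not tested as a part of those low values.

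Cd300c, an activating receptor linked to the Fc receptor gamma chain, differed from the rest of its family in where it was found. It read 5.14 in control and 7.90 in MKO in the plasmacytoid dendritic-like cluster, where it was among the leading genes, and 0.0123 and 0.0120 in the macrophage-like cluster. Cd300lf (2.62 in control and 1.98 in MKO) and Sirpa (2.32 and 1.68) were the other members with values above that cluster's floor of 2.05 in at least 1 pool. Cd300lg, a CD300 relative that is no member of the set, was highest in the sinusoidal endothelial-like cluster, at 2.08 and 2.65.

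**Figure D4:**
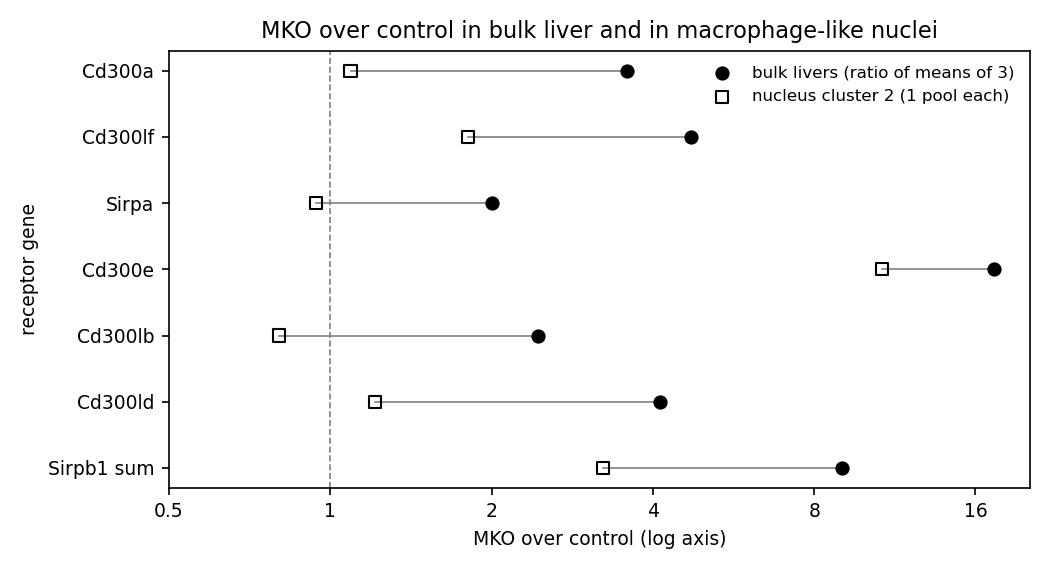
Ratio of MKO over control (log axis) for 6 receptor genes and the Sirpb1 sum in bulk livers (filled circles, ratio of means of 3 libraries) and in the macrophage-like nucleus cluster (open squares, 1 pool per genotype). Each circle lies to the right of its square, and Cd300e and the Sirpb1 sum have the largest ratios on both scales.

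Side by side, the ratio of MKO over control was larger in whole liver than in the macrophage-like nuclei for all 9 members. It was 17.3 and 10.7 for Cd300e, 9.02 and 3.23 for the Sirpb1 sum, 4.72 and 1.81 for Cd300lf, 4.12 and 1.21 for Cd300ld, 3.58 and 1.09 for Cd300a, 2.45 and 0.802 for Cd300lb and 2.001 and 0.941 for Sirpa. For the single Sirpb1 genes it was 6.94 and 3.39 (Sirpb1a), 4.79 and 3.24 (Sirpb1b) and 19.9 and 2.97 (Sirpb1c). Sirpb1c thus had the widest gap, on few control reads. The summed macrophage list stood at 2.32 in whole liver, and in the macrophage-like nuclei it read 65.8 in control and 83.0 in MKO. Cd300e and the Sirpb1 genes thus had ratios above 2 in both kinds of sample, and Sirpa and Cd300lb lay under 1 in the nuclei while they were at or above 2 in whole liver.

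The receptors' signalling partners and relatives were read from 7 lists of genes outside the set, compiled with earlier results of these data known; Fcer1g, Mertk, Timd4, Trem2, Treml4 and Siglech also stand in the marker lists above. Of 73 tested, 34 were called higher and 1 lower in MKO livers (limma, adjusted p under 0.05), with a median log2 fold change of 1.12, against 3.05% of all genes called either way. Because the lists were compiled that way, nothing is read from this count or from the counts per list below. The adjusted p-values given with them are a description of these libraries. The count of higher genes was 17 without MKO 2, 18 without MKO 3 and 22 without control 2.

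Adaptors and kinases below the activating receptors gave 10 of 12 called higher, with a median log2 fold change of 1.52. Fcer1g, the gamma chain, read 213 ± 37.2 in control and 859 ± 118 in MKO (SD, n = 3 each; log2 fold change 2.01 ± 0.17 SE, limma adjusted p = 0.0023). Syk, the kinase that binds the phosphorylated adaptors, rose by 2.01 ± 0.18 (SE; limma adjusted p = 0.0031), and Vav1, an exchange factor downstream of it, by 1.39 ± 0.17 (SE; limma adjusted p = 0.0051). In the macrophage-like nuclei Fcer1g read 3.15 in control and 8.24 in MKO, Tyrobp 1.92 and 4.41, and Syk 5.67 and 9.07. Vav1 read 1.90 and 1.81 there, so not every gene of this list was higher in that cluster.

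Partners of the inhibitory tails gave 3 of 9 called higher, with a median of 0.17. These were Fyb, an adaptor that joins SIRP-alpha to the cytoskeleton (1.77 ± 0.19 SE, limma adjusted p = 0.0043), the lipid phosphatase gene Inpp5d (1.21 ± 0.17 SE, limma adjusted p = 0.0073) and Ptpn6, which encodes SHP-1 (0.90 ± 0.14 SE, limma adjusted p = 0.011). The Ptpn6 call was lost without MKO 2 and without MKO 3. Ptpn11, which encodes SHP-2, read 1800.0 ± 95.6 in control and 1569 ± 318 in MKO (SD, n = 3 each). In the macrophage-like nuclei Inpp5d read 7.90 and 5.97.

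Ligands and their partners gave 0 of 8 called in either direction. Among them were Cd47 (1863 ± 44.4 in control and 2020 ± 193 in MKO, SD, n = 3 each) and Lrp1, a partner of calreticulin on phagocytes (log2 fold change 0.06 ± 0.17 SE, limma adjusted p = 0.93). Qpctl, the enzyme that modifies CD47 at the site SIRP-alpha binds, read 215 ± 11.4 and 180 ± 18.2 (SD, n = 3 each). No unadjusted p in this list was under 0.05 with limma.

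Other activating myeloid receptors gave 6 of 14 called higher and 1 lower, with a median log2 fold change of 1.59. Fcgr4, an activating Fc receptor for IgG, rose by 3.98 ± 0.30 (SE; limma adjusted p = 0.0019), from 75.0 ± 26.7 to 1162 ± 300 (SD, n = 3 each), and in the macrophage-like nuclei it read 0.799 and 5.77. Pilrb1, the activating partner of the paired receptor Pilra, rose by 3.28 ± 0.41 (SE; limma adjusted p = 0.0051), and Fcgr3 by 1.74 ± 0.21 (SE; limma adjusted p = 0.0044). Trem2, a DAP12-coupled lipid receptor of lipid-associated macrophages, fell by 2.20 ± 0.29 (SE; limma adjusted p = 0.0060), from 71.4 ± 11.3 to 15.04 ± 4.64 (SD, n = 3 each). Trem2 thus fell in the livers in which Cd300e, another receptor linked to DAP12, was higher. Pilrb1 read 0.544 in control and 1.55 in MKO in the macrophage-like nuclei. Fcgr3 read 1.10 and 1.31 there, under the level of 1.44 in both pools.

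Other inhibitory myeloid receptors gave 11 of 18 called higher and 0 lower, with a median of 1.46. Pilra rose by 2.73 ± 0.31 (SE; limma adjusted p = 0.0043), Siglec1, a sialic acid receptor of macrophages, by 2.27 ± 0.30 (SE; limma adjusted p = 0.0059), Lilr4b, a leukocyte immunoglobulin-like receptor, by 2.17 ± 0.22 (SE; limma adjusted p = 0.0034) and Cd72 by 1.19 ± 0.16 (SE; limma adjusted p = 0.0061). Receptors for phosphatidylserine outside the CD300 family, with their bridging proteins, gave 3 of 9 called higher and a median of 0.24. Axl, a receptor kinase for bridging proteins on dying cells, rose by 1.21 ± 0.16 (SE; limma adjusted p = 0.0054). Mertk (0.62 ± 0.12 SE, limma adjusted p = 0.025) and Timd4 (2.08 ± 0.42 SE, limma adjusted p = 0.035) passed too, but Mertk lost its call without MKO 2, MKO 3, control 2 or control 3, and Timd4 without each library but control 1, with no filter on low values and with edgeR on the recovered reads.

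Within the families, 1 of 3 further CD300 genes tested was called higher. Cd300ld3 rose by 2.16 ± 0.33 (SE; limma adjusted p = 0.011), from 15.7 ± 5.17 to 72.9 ± 18.1 (SD, n = 3 each), a call lost without MKO 2 and without MKO 3. Of 23 RefSeq genes within 100 kb of a member, 9 were tested, and 2 were called higher and 0 lower. They were Cd300ld3 and Gm5150, a gene beside the Sirpb1 genes, which rose by 3.19 (limma adjusted p = 0.013). Kif19a, beside the CD300 genes, was not called (6.31 ± 2.37 in control and 17.9 ± 0.72 in MKO, SD, n = 3 each; limma adjusted p = 0.13), although its groups did not overlap. Other non-family neighbours of the CD300 cluster such as Gprc5c (1086 ± 138 and 1071 ± 117), Nat9 (525 ± 89.9 and 523 ± 31.1) and Slc9a3r1 (2386 ± 466 and 2132 ± 23.0; SD, n = 3 each) overlapped between genotypes; they were picked as examples after their values were seen.

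Across the 26 nucleus columns (13 clusters in 2 pools), the genes whose pattern was most like that of Cd300e were Fcgr4 (Pearson r = 0.97 on log2 values), Clec4a3 (0.96), Gm5150 (0.95), Klra2 (0.94) and Adgre4 (0.93). For Sirpb1c the 5 were the same genes, led by Gm5150 (0.97) and Clec4a3 (0.96). For Sirpa they were Cd300a (0.95), Usp12 (0.92), Lilra5 (0.90), Ifi207 (0.89) and Slc7a8 (0.89). The columns share 2 libraries, clusters differ in depth and the macrophage-like clusters dominate each pattern, so the coefficients describe these columns only. Cd300e and Sirpb1c themselves lie under the level of 3.44 required of the genes compared.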

How the data were processed

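Whole-liver RNA was sequenced from 3 livers per genotype, and nuclei from 1 pool of 3 livers each, stained with propidium iodide and sorted, per the labels' protocols. The submitters' processing notes name STAR, Seurat 4.0.1, RSEM 1.3.3, Cell Ranger, FastQC, DESeq2 and the build mm10; their roles, the annotation and the strand setting were not stated there. The deposited bulk values are a signal, read counts divided by 1 size factor per library, from which whole reads could be recovered for every value (100%; tolerance 0.01). The log2 fold changes and p-values in the authors' deposited table were not used. The nucleus values, also a deposited signal, give 1 mean for each gene in each cluster of a pool; numbers of nuclei, filters and doublet removal were not given, so their depth is unknown.

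Tests used limma-trend (R 4.3.3, limma 3.58.1) with 1 genotype term on log2(value + 1), over 15249 genes with a mean of at least 1 (34 were left out), with Benjamini-Hochberg adjustment; fold changes on this scale understate low genes. The fit was tested on simulated data. Recovered reads were also tested with edgeR 4.0.16 and DESeq2 1.42.0. The labels do not state that libraries stem from separate animals; p-values then reflect only the spread among these libraries. No 2 libraries of a genotype were alike within sampling noise (chi-square over degrees of freedom, 28.1 to 73.1). In nuclei, ratios were compared among genes reaching, in at least 1 pool, the 90th percentile of a cluster's values above 0, with a pseudocount of 1/10 of it (0.144 in cluster 2) for log2 ratios. A cluster was named where at least 3 fixed markers were enriched at least 2-fold.

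The members and all gene lists were chosen with earlier results of these data known. Named genes were every member; from each companion list, up to 4 called genes with the smallest p, or the highest mean where none was called; called neighbours within 100 kb; and the 5 genes most like Cd300e, Sirpa and Sirpb1c. A few further companion genes (Tyrobp, Cd47, Qpctl and Ptpn11) were named for their known roles. A gene that this rule takes is not reported here. Gene models were GENCODE M21.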

Additional observations from a re-analysis of the deposited data

Results flagged for a closer look

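In the nuclei, 2 receptors differed in direction between clusters, each with 1 pool per genotype, so neither difference was tested. Cd300lf was higher in the MKO pool in the macrophage-like cluster (log2 ratio 0.81) and lower in the plasmacytoid dendritic-like cluster (-0.37), a gap of 1.19. Sirpa was higher in the MKO pool in the dividing cluster (0.80) and lower in the plasmacytoid dendritic-like cluster (-0.42), a gap of 1.22. In the dividing cluster the summed macrophage list read 21.3 in control and 53.3 in MKO, and the summed sinusoidal endothelial list 31.1 and 7.35. In the plasmacytoid dendritic-like cluster the macrophage list read 17.1 and 23.2, and the plasmacytoid dendritic list 224.6 and 173.6. The part of these lists in the receptors' differences was not tested.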

How the results depend on the processing

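Over all genes, 452 were called higher and 13 lower. Leaving out 1 library gave 175 to 410 higher and 5 to 31 lower, and DESeq2 on the recovered reads gave 50 lower. Genes of the companion lists called higher numbered 34, and 17 to 36 with 1 library left out; the 1 called lower, Trem2, was called under every alternative. The members' count past the threshold was 7, with 5 to 7 when 1 library was left out and 7 or 8 under the other settings; no log2 fold change of a member reversed. Cd300a, Cd300e, Cd300ld, Sirpb1a and Sirpb1c lay past it in all 15 alternatives, Cd300lf in 14, Sirpa in 11, Sirpb1b in 3 of 14 and Cd300lb in 1. The count of members higher than macrophage genes in every MKO library was 7, but 3 with Csf1r alone and 3 with Adgre1 alone, the latter chosen after seeing the data. Without the pseudocount, also chosen then, the counts with Csf1r alone and Adgre1 alone were again 3 and 3. The replicate numbers did not pair the samples (correlations of deviations 0.056, -0.030 and -0.11 for numbers 1 to 3). With the number as a replicate block, 391 genes were called higher and 17 lower, with 34 companion genes and 7 members higher, and Mertk lost its call (limma, adjusted p = 0.068). Control counts of the Sirpb1 genes, 1 to 10 reads a library, limit their ratios, and the nuclei have no replicate.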

Other observations

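Part of the wider CD300 family lies outside the set. Cd300c2, an activating receptor of the same cluster on chromosome 11, read 65.9 ± 24.9 in control and 175 ± 41.4 in MKO livers (SD, n = 3 each) without overlap and did not pass the test (limma adjusted p = 0.053). Cd300lg, known from endothelium, read 239 ± 18.5 and 269 ± 31.5 with overlap (SD, n = 3 each). In the macrophage-like nuclei Cd300c2 read 1.92 in control and 2.50 in MKO. In the same nuclei Lilr4b differed less than in whole liver, at 7.07 in control and 7.69 in MKO. Axl, called higher in whole liver, was lower in the MKO pool there, at 3.26 and 2.56. These are examples, and other companions such as Fcer1g and Fcgr4 were higher in the MKO pool.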
